A study of Arabidopsis thaliana with 6 samples.

Results

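The 10 genes described here encode proteins that fill the ripe seed of *Arabidopsis thaliana*: 4 oleosins of the oil body surface (OLEO1, OLEO2, OLEO3 and the oleosin gene AT3G01570), 3 cruciferins (CRA1, CRU2 and CRU3), 2 seed storage albumins (SESA1 and SESA3) and the peroxiredoxin PER1. They were taken by locus identifier from the 33602 loci of each deposited table, and all 10 were listed. Seedlings labelled bbx4-1, after an allele of the B-box gene BBX4 that the labels call a mutant, were compared with wild-type seedlings, both of accession Col, after 4 days at 22 °C in constant red light. For each genotype the labels name 3 replicates, and the authors' table holds them as 1 column of FPKM (fragments scaled to transcript length and to library size), so no replicate spread, test or p-value is given. The labels do not describe the lesion of bbx4-1. Seedlings mix shoot, root and any attached seed coat.

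Seeds of this species feed the germinating embryo from protein stored in vacuoles and from triacylglycerol stored in oil bodies. Cruciferins and albumins are the main storage proteins, and oleosins coat the oil body and keep it from fusing with its neighbours. In the maturing embryo the transcription factors LEC1, LEC2, FUS3 and ABI3 switch these genes on, the B3-domain members among them through a promoter element called RY, while abscisic acid acts through ABI5-type factors at ACGT-containing elements. During germination the programme is shut down by the B3 repressors HSI2 and HSL1, the chromatin remodeller PKL and Polycomb proteins, and the reserves are broken down.

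BBX4 itself stood at 1095.7 FPKM in the column labelled bbx4-1, against 88.97 FPKM in wild-type. The headers of the 2 columns read BBX4 and WT, and the names bbx4-1 and wild-type come from the titles of the samples. Whether the allele raises the level of a BBX4 transcript or the columns were exchanged was not tested. These and other readings cannot be told apart here. The 2 columns are therefore called by their sample labels. The column labelled bbx4-1 means the one headed BBX4, and wild-type the one headed WT, throughout. An exchange would invert every ratio below and turn round each direction, count of higher and lower loci, and highest or lowest log2 ratio. The depth behind each column, estimated from transfer RNA genes with a single fragment, was about 49800000 fragments for the column labelled bbx4-1 and 48100000 fragments for wild-type. Intervals given below are 95% counting intervals from approximate fragment numbers at those depths, exact Poisson for a level and Clopper-Pearson for a ratio. They cover counting error only, without the variation between seedlings or PCR copies. The photosynthesis markers of a green seedling were at high levels in both columns: RBCS1A, the small subunit of Rubisco, stood at 17123 FPKM in the column labelled bbx4-1 and 17575 FPKM in wild-type. Of 5 root markers, all were listed above 2 FPKM in both columns. Of 4 flower organ genes, AG had 0 FPKM in the column labelled bbx4-1 and 0.03 FPKM in wild-type, and SEP3 was the highest at 2.21 FPKM against 2.18 FPKM.

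Sequence upstream of the members was searched for seed elements, and none of these was found in every member searched. The 250 bases before the annotated start of 3 members are shown because they carry the contrast between members: an oleosin with both kinds of seed element, the cruciferin with the highest level, and an albumin with overlapping RY elements. They were read from the TAIR10.1 reference sequence on the strand of the gene, 5′ to 3′. Capitals mark the RY core CATGCA and the abscisic acid response element (ABRE) core ACGTG, each searched on both strands.
OLEO1, forward strand, chr4:12900180-12900429: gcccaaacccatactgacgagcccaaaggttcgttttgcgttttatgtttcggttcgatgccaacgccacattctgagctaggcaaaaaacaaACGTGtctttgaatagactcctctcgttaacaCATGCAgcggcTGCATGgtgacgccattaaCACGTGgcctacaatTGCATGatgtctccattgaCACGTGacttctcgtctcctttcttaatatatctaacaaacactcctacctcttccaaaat
CRA1, reverse strand, chr5:17758337-17758586: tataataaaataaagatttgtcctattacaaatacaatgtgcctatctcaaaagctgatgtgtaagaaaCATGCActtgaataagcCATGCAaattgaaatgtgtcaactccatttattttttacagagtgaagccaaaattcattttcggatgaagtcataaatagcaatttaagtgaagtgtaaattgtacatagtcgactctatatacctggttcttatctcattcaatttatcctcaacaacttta
SESA3, forward strand, chr4:13611546-13611795: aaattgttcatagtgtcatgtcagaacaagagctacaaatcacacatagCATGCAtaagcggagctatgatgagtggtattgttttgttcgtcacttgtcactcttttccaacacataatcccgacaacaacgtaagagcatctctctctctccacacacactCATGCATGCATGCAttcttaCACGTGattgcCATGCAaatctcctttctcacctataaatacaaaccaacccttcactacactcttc

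The RY core was found in the 250 bases of 8 of the 9 members searched, while 8.51% of 26711 nuclear protein-coding windows of the same length held it. PER1 had none. SESA3 had the most, with 7 matches counted with overlap, 5 of which lie in the alternating run of capitals, and it was the only member with the full palindrome CATGCATG, which 0.786% of all windows held. The ABRE core was found in 7 members and in 23.1% of all windows. OLEO1 and OLEO3 had 5 matches each, whereas OLEO2 and CRA1 had none. The G-box CACGTG, which holds the ABRE core on both strands and so counts as 2 matches of it, was found in 5 members and in 6.58% of all windows. CRA1, OLEO2 and PER1, the members with the highest levels, each lacked one of these cores. CRA1, the highest, had 2 RY cores and no ABRE core. All lower members that were searched had both cores, SESA3, near 0, among them. This split was seen after the levels were known, and a link between motifs and levels was not tested. The window of AT3G01570 overlaps its neighbour AT3G01572, a gene listed at 2.78 FPKM in the column labelled bbx4-1 and 2.66 FPKM in wild-type. A match describes the letters only and is not evidence of binding.

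**Figure D1:**
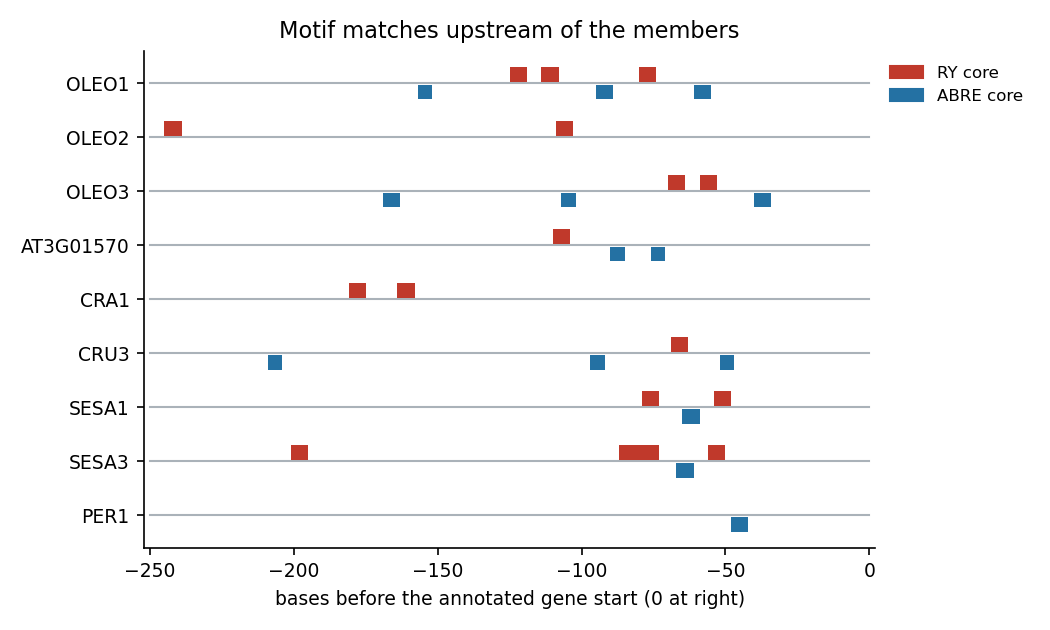
Positions of the RY core (red, above the line) and the ABRE core (blue, below the line) in the 250 bases before the annotated start of 9 members, in bases from that start. RY cores stand upstream of 8 members and ABRE cores upstream of 7, and SESA3 has the most RY cores, 7.

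The members were low but unevenly so. Summed over the 10 genes they held 25.7 FPKM in the column labelled bbx4-1 and 27.78 FPKM in wild-type, and the column sums over all loci were close, at 792874 and 790456 FPKM. Most of the members' sum came from 3 genes: CRA1, OLEO2 and PER1 together held 82.9% of the members' FPKM in the column labelled bbx4-1 and 81.9% in wild-type. The order of the first 7 by FPKM was the same in both columns, namely CRA1, OLEO2, PER1, OLEO1, AT3G01570, CRU3 and OLEO3. CRU2, SESA1 and SESA3 followed at 0.2 FPKM or less. Neighbours in this order were not always separable: the counting intervals of OLEO1 and AT3G01570 overlapped in both columns, those of OLEO2 and PER1 and of CRU3 and OLEO3 overlapped only in the column labelled bbx4-1, and those of CRA1 and OLEO2 overlapped only in wild-type. The median nuclear protein-coding locus stood at 4.77 FPKM in the column labelled bbx4-1 and 4.66 FPKM in wild-type, so 3 members lay above the middle of the transcriptome and 7 below it. Neither table holds a seed sample or an earlier time, so whether these transcripts were carried over from the seed or made in the seedling was not measured.

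**Figure D2:**
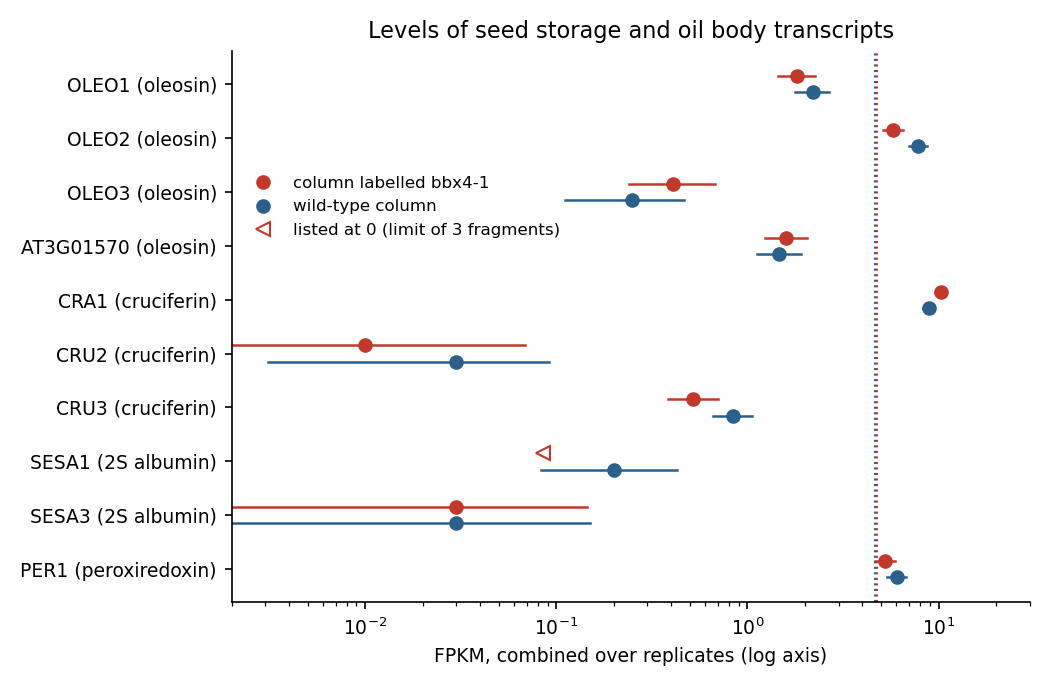
FPKM of the 10 members on a log axis, with 95% counting intervals, in the column labelled bbx4-1 (red) and in wild-type (blue); dotted lines mark the median nuclear protein-coding locus of each column and the open triangle the limit that a value of 0 allows. CRA1, OLEO2 and PER1 stand above that median in both columns, and CRU2, SESA1 and SESA3 lie at 0.2 FPKM or less.

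Between the columns, 3 members were listed higher in the column labelled bbx4-1, 6 lower and 1 at the same value, while over all loci 14817 were higher, 11632 lower and 7153 equal. Differences between columns are given as log2(FPKM + 1) in the column labelled bbx4-1 minus the same in wild-type, a scale that understates the change of low genes. Loci were counted as past 2-fold only where the mean of their 2 FPKM values reached 1. Of the 10 members, 5 passed that filter, and 0 of these were past 2-fold, against 0.148% of 18931 loci (0.106% higher and 0.0423% lower). Their log2 ratios ran from −0.37 for OLEO2 to 0.19 for CRA1 with a median of −0.17, beside a median of 0.028 over all loci that passed. Of the 18931 loci that passed, 11183 were above 0 and 7652 below. More loci above 0 than below was thus usual, and the counts given for the lists further on stand beside that. The counting interval of the FPKM ratio excluded 1 for 2 of these 5 members, OLEO2 downward and CRA1 upward, against 36.4% of nuclear loci that passed (23.8% upward and 12.6% downward). Intervals that exclude 1 were thus common among all loci, and the members' count is not a result about them.

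**Figure D3:**
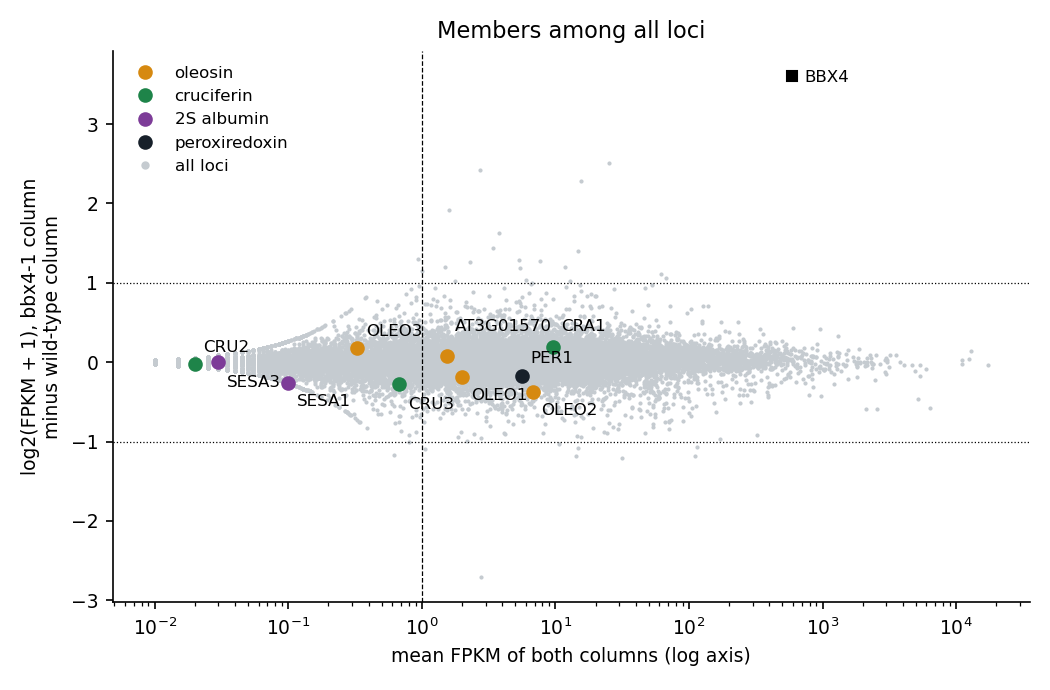
Difference in log2(FPKM + 1) between the column labelled bbx4-1 and wild-type against mean FPKM (log axis) for all loci (grey) and the 10 members (coloured by protein class); dotted lines mark 2-fold and the dashed line a mean FPKM of 1. The members lie within the cloud of all loci and between −0.37 and 0.19, whereas BBX4 stands at 3.61.

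Among the oleosins, OLEO2 was the highest. OLEO2 (AT5G40420; TAIR10.1 chromosome 5, 16173340 to 16174783, reverse strand, 2 exons) stood at 5.81 FPKM in the column labelled bbx4-1, against 7.83 FPKM in wild-type. Its level was lower in the column labelled bbx4-1, with counting intervals of 5.14 to 6.55 and 7.02 to 8.69 FPKM that did not overlap. The ratio was 0.742 (0.631 to 0.874), or −0.37 on the log2 scale, from about 268 and 348 fragments in the same order. In bulk seedlings, fewer cells holding a transcript and less of it per cell cannot be told apart. This lies just past the lower end of the central 95% of nuclear loci with a mean of 1 to 12 FPKM, which ran from −0.32 to 0.38. The 3′ end of OLEO2 overlaps 15 bases of the gene AT5G40410 on the other strand, which stood at 0.46 FPKM against 0.38 FPKM.

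OLEO1 (AT4G25140; chromosome 4, 12900430 to 12901577, forward strand, 2 exons), the most abundant oleosin of the seed oil body, stood at 1.82 FPKM in the column labelled bbx4-1, against 2.21 FPKM in wild-type. Its ratio of 0.824 had a counting interval of 0.606 to 1.12, which holds 1 and also the ratio of OLEO2, so the columns could not be separated for OLEO1 at about 82 and 96 fragments. OLEO1 shares 44 bases at its 3′ end with AT4G25150 on the other strand, listed at 1.63 FPKM against 1.96 FPKM.

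The oleosin gene AT3G01570 (chromosome 3, 221939 to 222827, reverse strand, 2 exons) stood at 1.6 FPKM in the column labelled bbx4-1, against 1.47 FPKM in wild-type. The ratio of 1.09 (0.747 to 1.57) did not separate the columns. AT3G01570 shares 51 bases at its 3′ end with AT3G01560 on the other strand, which is transcribed at 14.43 FPKM against 13.97 FPKM. At that level, 51 bases of AT3G01560 correspond to about 36.7 and 34.3 fragments, against the 65 and 58 assigned to AT3G01570, and no label states whether counting used strand. The part of these reads in the value of AT3G01570 was not tested.

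OLEO3 (AT5G51210; chromosome 5, 20820068 to 20820944, forward strand, 2 exons) was the lowest oleosin of the 4, at 0.41 FPKM in the column labelled bbx4-1 and 0.25 FPKM in wild-type. About 16 and 9 fragments lay behind these values, and the interval of the ratio, 0.714 to 4.40, allowed a change in either direction. OLEO3 did not pass the filter on mean FPKM. Over all 4 oleosins the sum was 9.64 FPKM in the column labelled bbx4-1 and 11.76 FPKM in wild-type, a ratio of 0.820 in which OLEO2 weighs most.

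The 3 cruciferins differed from each other far more than the columns did. CRA1 (AT5G44120; chromosome 5, 17756238 to 17758336, reverse strand, 4 exons in the first of 3 annotated models), a subunit gene of the globulin storage hexamer, stood at 10.24 FPKM in the column labelled bbx4-1, against 8.87 FPKM in wild-type. It was the only member with an interval above 1: the ratio was 1.15 (1.05 to 1.27), 0.19 on the log2 scale, from about 952 and 795 fragments. The level intervals, 9.60 to 10.9 FPKM and 8.26 to 9.50 FPKM, did not overlap, but the difference was inside the central 95% of loci at this level. CRA1 was higher than 65.5% of nuclear protein-coding loci in the column labelled bbx4-1 and than 62.9% in wild-type.

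CRU3 (AT4G28520; chromosome 4, 14087556 to 14089796, forward strand, 4 exons in the first of 5 models), the second subunit gene, stood at 0.52 FPKM in the column labelled bbx4-1, against 0.84 FPKM in wild-type. It was lower in the column labelled bbx4-1, the opposite of CRA1, with a ratio of 0.619 (0.421 to 0.909) from about 47 and 73 fragments. CRU3 did not pass the filter. Among nuclear loci with a mean FPKM under 1 and at least 10 fragments, the interval excluded 1 for 13.6%.

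CRU2 (AT1G03880; chromosome 1, 985751 to 988146, forward strand, 4 exons), the remaining subunit gene of the cruciferin family, stood at 0.01 FPKM in the column labelled bbx4-1 and 0.03 FPKM in wild-type, which is about 1 and 2 fragments. Both values lie under the 3-fragment limit of 0.037 FPKM in the column labelled bbx4-1 and 0.038 FPKM in wild-type, so no ratio is given. The same tissue thus listed CRA1 at 10.24 FPKM and CRU2 at 0.01 FPKM in the column labelled bbx4-1, and at 8.87 and 0.03 FPKM in wild-type. Its tandem neighbour AT1G03890, annotated as a cupin protein, was listed at 0.01 FPKM in the column labelled bbx4-1 and at 0 in wild-type. Where reads of related cruciferin genes could not be told apart, single values are uncertain.

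The albumins were near 0 in both columns. SESA1 (AT4G27140; chromosome 4, 13607329 to 13608031, forward strand, 1 exon) had a listed value of 0 in the column labelled bbx4-1, where 3 fragments would give 0.086 FPKM, and 0.2 FPKM in wild-type, which is about 7 fragments. The counting interval of the ratio ran from 0 to 0.669 and so excluded 1. The wild-type interval of the level, 0.083 to 0.43 FPKM, starts just below the 3-fragment limit, so no fold is given. Over all 10 members the interval of the ratio excluded 1 for 4, downward for OLEO2, CRU3 and SESA1 and upward for CRA1. Among nuclear loci it did so for 36.4% at a mean FPKM of at least 1. Under that mean, with at least 10 fragments, it did so for 13.6%. SESA1 belongs to neither set, so no matching share is given and the count is not a result about the members. SESA3 (AT4G27160; chromosome 4, 13611796 to 13612563, forward strand, 1 exon) stood at 0.03 FPKM in both columns, about 1 fragment in each, under the 3-fragment limits of 0.078 and 0.081 FPKM.

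SESA1 to SESA4 are tandem copies within 6955 bases of chromosome 4, positions 13607329 to 13614283, so reads may have been divided among them. Summed after their values were seen, these 4 genes had 0.14 FPKM in the column labelled bbx4-1 and 0.52 FPKM in wild-type, or about 5 and 18 fragments. SESA2 stood at 0.05 FPKM against 0.11 FPKM and SESA4 at 0.06 FPKM against 0.18 FPKM. Outside the cluster, SESA5 stood at 0.08 FPKM against 0.09 FPKM. Each of these albumin values rests on 7 fragments or fewer, and no difference between the columns was detectable at this depth for SESA2 to SESA5.

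PER1 (AT1G48130; chromosome 1, 17780429 to 17781727, forward strand, 4 exons) encodes a peroxiredoxin of the embryo and aleurone. It stood at 5.26 FPKM in the column labelled bbx4-1, against 6.05 FPKM in wild-type, the third level among the members. The ratio of 0.869 (0.738 to 1.03) did not separate the columns. The other peroxiredoxin genes of the plant include those of plastid and cytosolic enzymes. The 8 on the list summed to 2393 FPKM in the column labelled bbx4-1 and 2263 FPKM in wild-type, with a median log2 ratio of 0.084 and 7 of 8 above 0. Among them the highest log2 ratio was 0.43, for TPX2 (50.13 FPKM against 36.96 FPKM), and the lowest −0.007, for 2-Cys Prx B.

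**Figure D4:**
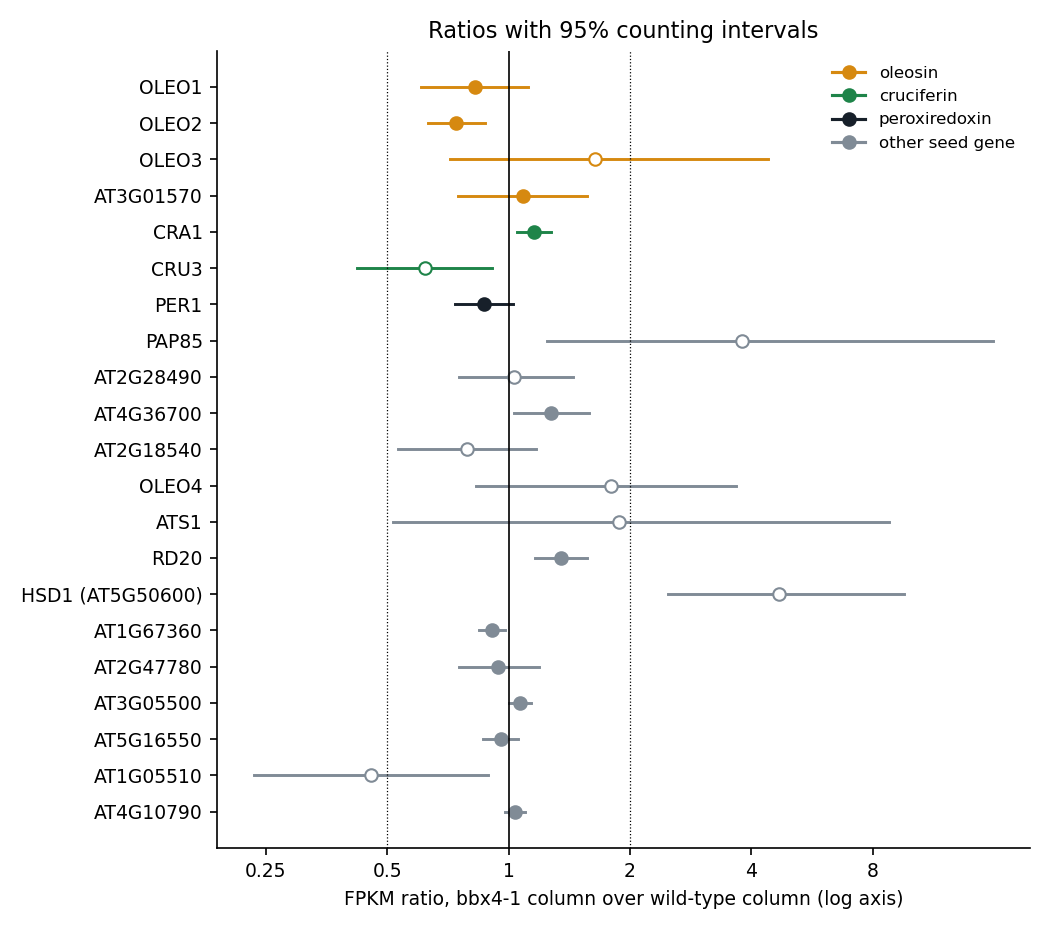
FPKM ratio of the column labelled bbx4-1 over wild-type (log axis) with 95% counting intervals, for members and other storage or oil body genes above 0 in the column labelled bbx4-1 and with at least 10 approximate fragments over both columns; open circles did not pass a mean FPKM of 1 and dotted lines mark 2-fold. OLEO2 and CRU3 lie below 1 and CRA1 above it, and the highest ratios are those of HSD1 at AT5G50600 (4.69) and PAP85 (3.8), neither of which passed a mean FPKM of 1.

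Other storage protein genes were as low as most members. Of 8 listed genes, only AT4G36700, annotated as a cupin protein, passed the filter, at 2.24 FPKM in the column labelled bbx4-1 and 1.76 FPKM in wild-type (ratio 1.27, interval 1.03 to 1.58). The vicilin-like gene PAP85 stood at 0.19 FPKM against 0.05 FPKM, about 16 and 4 fragments, a ratio of 3.8 with an interval of 1.25 to 15.9. The cupin genes AT2G28490 and AT2G18540 stood at 0.92 against 0.89 FPKM and at 0.41 against 0.52 FPKM, and both intervals held 1.

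Among the other listed oil body genes, the listed oleosins and the listed caleosins other than RD20 were near 0 and several others were readily detected. OLEO4 stood at 0.34 FPKM against 0.19 FPKM, the oleosin gene AT1G48990 at 0.06 against 0.08 FPKM, the seed caleosin gene ATS1 at 0.15 against 0.08 FPKM and ATPXG2, a second caleosin gene, at 0.06 against 0.02 FPKM, with the value of the column labelled bbx4-1 first in each pair. RD20, the caleosin gene of leaves that is known to be induced by drought, stood at 8.42 FPKM in the column labelled bbx4-1 and 6.25 FPKM in wild-type (ratio 1.35, interval 1.16 to 1.56), the highest log2 ratio of the list at 0.38. The genes AT1G67360, AT2G47780 and AT3G05500, which the annotation names as rubber elongation factor proteins, stood at 21.4 against 23.52 FPKM, 3.35 against 3.55 FPKM and 24.48 against 22.96 FPKM. AT1G67360 had the lowest log2 ratio of the list among measured genes, −0.13. AT5G16550 stood at 14.15 against 14.82 FPKM and AT4G10790, annotated with a UBX domain, at 27.6 against 26.59 FPKM.

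HSD1, a steroleosin gene, has copies at AT5G50600 and AT5G50700 under the same name, so their separate values are uncertain. AT5G50600 stood at 0.75 FPKM in the column labelled bbx4-1, against 0.16 FPKM in wild-type, about 58 and 12 fragments, a ratio of 4.69 with an interval of 2.48 to 9.54. AT5G50700 stood at 0.03 FPKM in the column labelled bbx4-1 and was listed at 0 in wild-type. AT1G05510 stood at 0.3 FPKM against 0.66 FPKM (ratio 0.455, interval 0.234 to 0.891). Of the 13 genes, 6 passed the filter, 3 above and 3 below 0 and none past 2-fold, with a median log2 ratio of −0.005 that turned to 0.006 at a pseudocount of 5 and to 0.052 with a filter at mean FPKM 5 or with none.

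The master activators LEC1, LEC2, FUS3 and ABI3 were below 0.5 FPKM in both columns, whereas some other listed regulators of seed maturation were well detected. LEC1 was listed at 0 in both columns, LEC2 stood at 0.06 FPKM in the column labelled bbx4-1 against 0.08 FPKM in wild-type, and FUS3 at 0.04 against 0.08 FPKM. ABI3 stood at 0.42 FPKM against 0.39 FPKM, with an interval of the ratio of 0.747 to 1.57. ABI5, the bZIP factor of abscisic acid signalling, stood at 0.83 FPKM against 1.12 FPKM, a ratio of 0.741 (0.551 to 0.982). ABI5 did not pass the filter. Of nuclear loci with a mean FPKM under 1 and at least 10 fragments, 13.6% had an interval that excluded 1. Of 18 listed regulators of seed maturation 6 passed the filter, 3 on each side of 0. DOG1, a regulator of dormancy, was lowest at −0.27 (1.47 against 1.98 FPKM) and BZIP25 highest at 0.17. BZIP25 stood at 32.97 FPKM against 29.14 FPKM, above HSI2, HSL1 and PKL. WRI1, an activator of oil synthesis, stood at 4.31 FPKM against 4.32 FPKM and was named after its values were seen. The list's median was 0.002, and −0.021 after TMM rescaling.

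The repressor HSI2 stood at 7.99 FPKM in the column labelled bbx4-1 and 8.44 FPKM in wild-type, HSL1 at 8.18 against 8.14 FPKM and PKL at 19.68 against 19.44 FPKM, and all 3 intervals of the ratio held 1. Of 18 listed repressors 17 passed the filter, with 11 above and 6 below 0, a median of 0.017 that became −0.011 after TMM rescaling, and none past 2-fold. The lowest was FIE, a Polycomb subunit, at −0.14, and the highest ASIL1, a trihelix repressor of seed genes, at 0.15.

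Late embryogenesis genes, which are switched on in the drying seed and in part by drought in leaves, went both ways. Of 22 listed, 13 passed the filter, 8 above and 5 below 0, with a median log2 ratio of 0.025 and none past 2-fold on that scale. M17 had the highest log2 ratio, 0.70, at 3.13 FPKM in the column labelled bbx4-1 and 1.55 FPKM in wild-type. RAB18, a dehydrin gene that responds to abscisic acid, stood at 10.92 FPKM against 7.52 FPKM (0.48). The lowest log2 ratio was −0.30, for AT4G21020. EM1, an early methionine-labelled gene of the ripe embryo, did not pass the filter and stood at 0.26 FPKM against 0.65 FPKM (ratio 0.4, interval 0.186 to 0.807). RAB18 and EM1, and ICL, PMDH2, SDP1-LIKE and KCS18 below, were named after their values were seen.

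**Figure D5:**
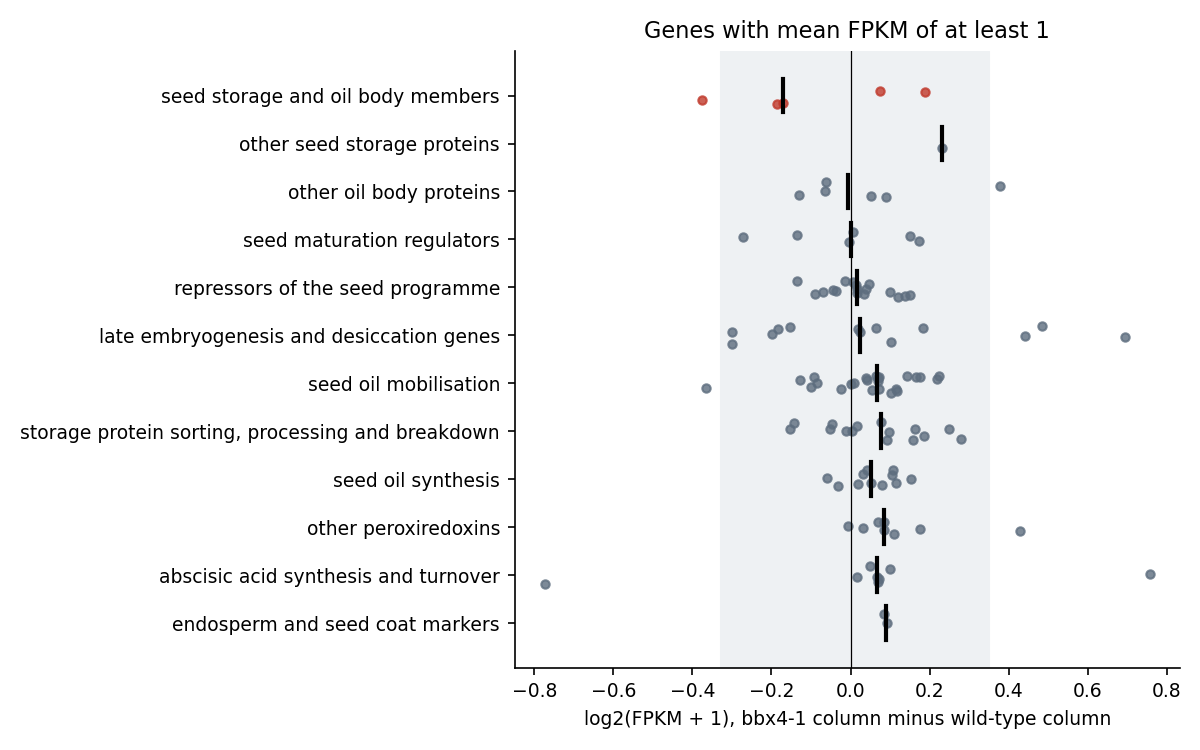
Difference in log2(FPKM + 1) between the column labelled bbx4-1 and wild-type for genes with a mean FPKM of at least 1, by list, with black bars at the medians and the central 95% of all such loci shaded. The 5 members that passed run from −0.37 to 0.19, no listed gene reaches 1 in either direction, and the widest spread, from −0.77 to 0.76, is among genes of abscisic acid synthesis and turnover.

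Most genes for the breakdown of the reserves were detected above the members, but not all of them. All 24 listed genes of oil mobilisation passed the filter, summing to 1232 FPKM in the column labelled bbx4-1 and 1249 FPKM in wild-type, of which PMDH2, a peroxisomal malate dehydrogenase gene, gave 546.08 and 597.1 FPKM, with 18 above and 6 below 0 and a median log2 ratio of 0.067. The lowest log2 ratio was −0.37, for MLS, malate synthase of the glyoxylate cycle, at 3.68 FPKM against 5.03 FPKM. In level, MLS stood below CRA1, OLEO2 and PER1 in both columns, and SDP1-LIKE stood lower still, at 2.59 FPKM against 2.57 FPKM. The partner of MLS, ICL, isocitrate lyase, stood at 26.7 FPKM against 26.68 FPKM. PNC2, a peroxisomal nucleotide carrier, had the highest log2 ratio, 0.22. Genes of storage protein sorting, processing and breakdown had 15 of 16 measured, 10 above and 5 below 0 and a median of 0.076, from DELTA-VPE at −0.15 to GAMMA-VPE, a vacuolar processing protease, at 0.28. Of 14 oil synthesis genes 11 were measured, 9 above and 2 below 0, with a median of 0.053, SUS3 lowest at −0.059 and FAD3 highest at 0.15. KCS18, the elongase gene of seed oil also known as FAE1, was listed at 0 in both columns.

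Genes of abscisic acid synthesis and turnover had 8 of 12 measured, 7 above and 1 below 0, and a median of 0.068. Within it, 2 genes for enzymes that inactivate the hormone went in opposite directions. CYP707A2 stood at 2.97 FPKM in the column labelled bbx4-1 and 1.35 FPKM in wild-type (0.76), and CYP707A3 at 5.91 FPKM against 10.81 FPKM (−0.77). Without a pseudocount, the FPKM ratio was 2.2 (1.82 to 2.69) for CYP707A2 and 0.547 (0.494 to 0.605) for CYP707A3.

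Endosperm and seed coat markers were checked because shed or attached seed coats can be collected with seedlings. The 9 markers summed to 20.41 FPKM in the column labelled bbx4-1 and 19.24 FPKM in wild-type, of which MUM2 and MAN7, the 2 that passed the filter, made up most, with log2 ratios of 0.086 and 0.092. The seed coat flavonoid genes BAN, TT10 and TT12 stood at 0.01 against 0.08 FPKM, 0.08 against 0.04 FPKM and 0.03 against 0.02 FPKM. The endosperm genes EPR1 and EXPA2 stood at 0.57 against 0.74 FPKM and 0.49 against 0.34 FPKM, and RGE1 was listed at 0 against 0.04 FPKM. Their part in the members' levels was not tested, and none of these endosperm or seed coat genes had an interval of the ratio that excluded 1 among the 2 that passed the filter.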

How the data were processed

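Messenger RNA was measured in 6 samples of seedlings, 3 per genotype. Per the labels' protocols, poly(A)-enriched, fragmented RNA was made into libraries. The authors deposited 1 FPKM column per genotype, given to 2 decimals and combined over replicates. Per the submitters' processing notes, HISAT2 2.1.0, edgeR 3.0.8 and TAIR10 were used; their roles, the counter, gene lengths and strand setting are not stated. Loci were matched by identifier to the TAIR10.1 RefSeq annotation (32835 of 33602, all 10 members), whose symbols, coordinates and sequence are printed. Upstream motifs were searched in 9 members, and the upstream sequence of CRU2 is not reported here.

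Depth was estimated from transfer RNA genes of at most 75 bp whose FPKM multiplied by length was within 1.5 times the lowest value (18 genes in the column labelled bbx4-1 and 20 in wild-type). Approximate fragments are FPKM times annotated exon length at that depth. With 1 column per genotype there was no test, and the functions were tested on simulated data. Python 3.11.15, NumPy 2.4.6 and SciPy 1.17.1 were used. Beyond the members, 175 entries in 14 lists were described. Named are all members, the highest and lowest measured gene of each list, any past 2-fold and every other listed storage and oil body gene. Also named are 8 regulators and, as stated, genes chosen after their values were seen. Marker genes are named as a check of the tissue. The members and lists were chosen with earlier results of these data known. Alternatives were pseudocounts of 0.1 and 5, a trimmed-mean (TMM) rescaling of nuclear loci, a filter at mean FPKM 5 and no filter.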

Additional observations from a re-analysis of the deposited data

How the results depend on the processing

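No paired analysis was possible because the replicates were combined into 1 column per genotype, and for the same reason no replicate could be left out. No member that passed a filter was past 2-fold at pseudocounts of 0.1 or 5 or after TMM rescaling (a factor of 1.02). The same held with a filter at mean FPKM 5. The count was also 0 without a filter, but there the pseudocount of 1 fixed the outcome. The members added without a filter were at 0.84 FPKM or less in each column and could not reach 2-fold on that scale. No setting joined a pseudocount of 0.1 with no filter. The median log2 ratio of the members stayed below 0, between −0.20 and −0.080, in all of these settings. In the main setting 2 of the 5 measured members were above 0, and the median was the value of PER1, whose ratio interval held 1 (0.738 to 1.03). No member's log2 ratio changed sign at another pseudocount or, apart from SESA3 (0 and −0.001), left its main direction after rescaling. OLEO2 was at −0.25 with a pseudocount of 5, CRU3 at −0.60 and SESA1 at −1.58 with 0.1. The count of loci past 2-fold was 66 at a pseudocount of 0.1, 9 at 5, 18 with the filter at 5, 27 after rescaling and 31 without a filter, choices added for this count after seeing the data.

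Among list medians, other oil body genes turned to 0.0056 at a pseudocount of 5 and to 0.052 with the filter at 5 and with none. After rescaling the seed maturation regulators turned to −0.021 and the repressors to −0.011. Other seed storage genes, with 1 measured gene at 0.23, were at 0.33 and 0.099 with pseudocounts of 0.1 and 5, at 0.21 after rescaling and at 0.00053 without a filter. Endosperm and seed coat markers, at 0.089 over 2 genes, were at 0.10, 0.061, 0.063 and 0.014 in the same settings. The causes were not tested, except that the filters change which genes are counted. At these depths CRU2, SESA1 and SESA3 rest on 7 fragments or fewer per column. Of these 3 the interval of the ratio excluded 1 for SESA1 (0 to 0.669). The share over all loci with so few fragments was not counted.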
